A study of Homo sapiens with 4 samples.

Results

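The genes described here are those of the tripartite motif (TRIM) family, chosen by name alone as every gene whose current symbol is TRIM followed by a digit. In the array annotation 60 such genes, of 18132 genes in all, had at least 1 probe set assigned to a single gene, and they were read by 160 of the 44988 single-gene probe sets. The arrays measured messenger RNA in SCC-15, an established cell line from a human squamous cell carcinoma of the tongue. The mimic cells received a mimic, a synthetic duplex designed to work as a mature microRNA does, and the control cells a negative control oligonucleotide labelled miR-NC. Both were transfected 24 h after seeding, with the dose given as 30 nM, and collected 36 h later, with 2 arrays for mimic (mimic 1 and 2) and 2 arrays for control (control 1 and 2). The series title and design text name the mimic miR-762, whereas the sample labels name it miR-585-5p, so it is called the mimic below. All cells are of 1 line, no untransfected cells were analysed here, and no label says that replicates came from separate cultures, so the p-values below take in only how far these 4 arrays differ, a spread that may be technical.

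Most TRIM proteins start with a RING finger, which makes them E3 ubiquitin ligases, followed by B-box domains and a coiled coil through which they pair. The part after the coiled coil differs between subfamilies and sets what each protein binds: a PRY-SPRY domain in most, among them retrovirus restriction factors and regulators of RNA sensing, a PHD finger and bromodomain in nuclear co-repressors, NHL repeats in RNA-binding or cargo-binding ligases, or a membrane anchor. Several members are induced by interferon, and others are known mainly from muscle, neurons or basal epithelium.

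The 2 names given for the mimic stand for different microRNAs, which is why both sequences are shown, as listed by RefSeq for GRCh38.p14, with the seed (bases 2 to 8, which direct target pairing) in capitals. miR-585-5p lies at chr5:169263649-169263670 on the minus strand and miR-762 at chr16:30893951-30893972 on the plus strand.
hsa-miR-585-5p: cUAGCACAcagauacgcccaga
hsa-miR-762: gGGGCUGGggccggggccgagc
The seeds differ, and no target prediction was made for either name.

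Replicate arrays correlated at r = 0.998 for mimic and r = 0.997 for control over all probe sets, and pairs of 1 mimic and 1 control array at r = 0.991. Epithelial markers were bright on all 4 arrays, with KRT5, a basal keratin, between 11.79 and 12.32 and CDH1, E-cadherin, between 9.68 and 9.78 on the log2 scale of intensity. KRT6A, KRT17 and TP63 are not read here by a single-gene probe set. Of the defining markers of other cells, PTPRC and ITGAM of leukocytes, COL3A1, DCN and LUM of fibroblasts and TEK of endothelium were below the level filter described next, and 10 of the 16 leukocyte, fibroblast and endothelial markers measured were above it, the brightest being CD68 at 5.62 to 6.10. Of 3 leukocyte markers tested 2 rose (CD14 and CD68), as did 4 of 7 epithelial markers, while 0 of 3 fibroblast and 0 of 4 endothelial markers passed in limma. Of 18 mitosis genes in a list, all 18 rose in the mimic arrays, with a median difference of 1.39. For these counts, 17.7% of all genes rose and 12.3% fell. The part of these shifts in the TRIM values was not tested.

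Each gene was represented by its brightest probe set, and probe sets in the lowest 30% by mean level (below 2.83 on the log2 scale, an intensity of 7.10) were left out. This left 49 of the 60 TRIM genes. The remaining 11 (TRIM34, TRIM40, TRIM42, TRIM48, TRIM51, TRIM53AP, TRIM54, TRIM60, TRIM61, TRIM64 and TRIM77) had mean levels between 1.42 and 2.56 and differences, mimic minus control, between -0.27 and 0.09. They include TRIM54, a muscle ring finger gene, and the pseudogene TRIM53AP, and their low values cannot be told from background. Next to the filter, TRIM40 had a mean level of 2.56 and TRIM77 of 2.49, both just below it, and TRIM10 had 2.86 and TRIM2 2.88, both just above it.

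Of the 49 TRIM genes tested, 8 rose, 7 fell and 34 did not pass (limma, Benjamini-Hochberg adjusted p under 0.05 over 14340 genes). The 15 called genes are 30.6% of those tested, and 30.1% of all genes were called, so the family as a whole was called at the share of the array. By direction, 16.3% of TRIM genes rose against 17.7% of all genes, and 14.3% fell against 12.3%. The median difference was -0.05 over TRIM genes and -0.02 over all genes, and the median size of the difference regardless of sign was 0.20 over TRIM genes and 0.18 over all genes. The arrays of the 2 groups did not overlap for 37 TRIM genes, or 75.5%, against 70.4% of all genes. Differences below 0 were found for 30 TRIM genes, or 61.2%, against 53.2% of all genes. Quantile normalization of the deposited values changed the split to 6 TRIM genes higher and 14 lower, where over all genes it gave 2057 higher and 2620 lower in place of 2544 and 1766. On leaving out 1 array a group holds 1 array, and most calls were lost over the whole array as over TRIM genes. The median TRIM difference was then -0.09 without control 1 and -0.06 without control 2. It was -0.06 without mimic 1 and -0.05 without mimic 2.

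**Figure D1:**
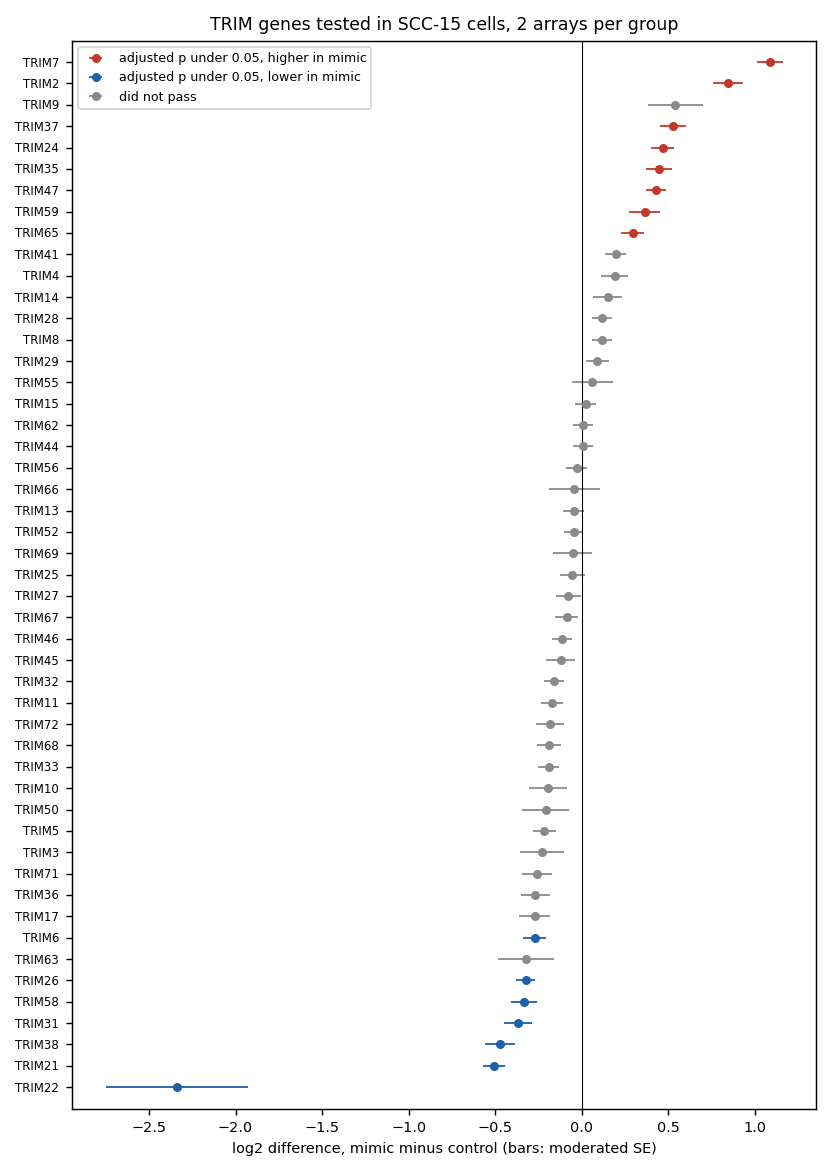
Log2 difference, mimic minus control, of the 49 TRIM genes tested, ordered from the highest to the lowest, with the moderated standard error as a bar and colour showing the test. TRIM22 stands alone at -2.34 and TRIM7 leads at 1.09, whereas 29 genes lie within 0.25 of 0.

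Only TRIM22 and TRIM7 among the genes tested differed by 2-fold or more. The 15 called genes in every array are plotted by group below, and the account that follows takes the members by role.

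**Figure D2:**
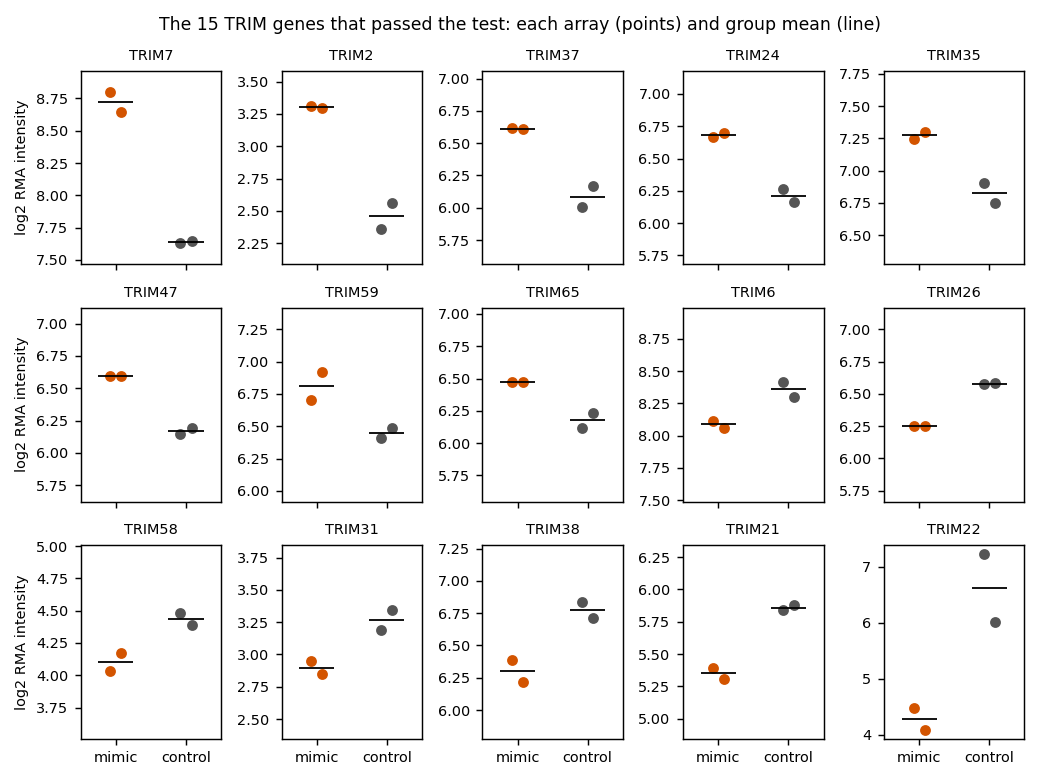
Log2 RMA intensity of the 15 TRIM genes that passed, mimic arrays at the left and control arrays at the right of each panel, with points for arrays and a line for the mean of 2. Axes differ between panels, each spanning at least 1.5 log2 units. In every panel the mimic arrays lie on 1 side of both controls, and TRIM22 has the widest gap between its controls (7.23 and 6.01).

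Among the TRIM genes listed here as interferon-linked and antiviral, more members fell than rose. The list was chosen with earlier results of these data known, and a list of other members could give other counts. Of 12 genes listed for this role, 11 were tested, of which 5 fell (TRIM22, TRIM21, TRIM38, TRIM26 and TRIM6), 1 rose (TRIM65) and 5 did not pass, where 12.3% of all genes fell and 17.7% rose. Their median difference was -0.22, against -0.02 over all genes. The median was -0.17 on leaving out control 1 and -0.27 on leaving out control 2, with most calls lost as over the whole array.

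TRIM22, an interferon-induced ligase that restricts several viruses, had log2 levels of 4.48 and 4.09 in the mimic arrays, against 7.23 and 6.01 in the control arrays. As intensities these are 22.3 and 17 in mimic and 151 and 64.3 in control, so the groups did not overlap, and control 1 was far above control 2. The means were 4.28 ± 0.28 in mimic and 6.62 ± 0.87 in control (SD, n = 2 each), and TRIM22 fell by 2.34 ± 0.41 (SE) on the log2 scale, 5.06-fold (limma adjusted p = 0.0166), the third lowest difference of 14340 genes. Without control 1 the difference was -1.73 (limma adjusted p = 0.059), without control 2 it was -2.95 (limma adjusted p = 0.0449), and with a variance model that allows for outlying genes the call was lost (limma adjusted p = 0.0591). The gene has 6 probe sets, all with a difference below 0 and all with control 1 above control 2. The other 5 gave -0.78, which passed, and -0.76, -0.33, -0.27 and -0.14, which did not, so the size of the fall rests on 1 probe set, and the mean over probe sets above the filter was -1.01 (limma adjusted p = 0.0196).

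TRIM21, the cytosolic receptor that binds antibody-coated viruses, had 5.39 and 5.31 in mimic and 5.84 and 5.88 in control, with no overlap and close replicates. It fell by 0.51 ± 0.063 (SE), 1.42-fold (limma adjusted p = 0.00663), read by a single probe set of the kind that can share probes with other transcripts. TRIM38, a regulator of innate immune signalling, had 6.39 and 6.22 in mimic and 6.84 and 6.71 in control. It fell by 0.47 ± 0.088 (SE), 1.39-fold (limma adjusted p = 0.019), and its other probe set gave -0.31. The replicates of each group lay within 0.18 of each other for both genes, so neither shows the wide control gap of TRIM22.

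TRIM26, a regulator of the interferon response that lies among the HLA genes, had 6.26 and 6.25 in mimic and 6.57 and 6.58 in control. It fell by 0.32 ± 0.056 (SE), 1.25-fold (limma adjusted p = 0.0155), and all 4 of its probe sets had a difference below 0, from -0.58 to -0.28, of which 3 passed. TRIM6, which makes unanchored ubiquitin chains in interferon signalling, had 8.11 and 8.06 in mimic and 8.42 and 8.30 in control. It fell by 0.27 ± 0.068 (SE; limma adjusted p = 0.0403), a call lost in 7 of 13 alternative analyses. The 2 groups did not overlap for TRIM26 or TRIM6.

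TRIM65, a ligase of the RNA sensor MDA5, went the other way, at 6.47 and 6.47 in mimic and 6.12 and 6.24 in control. It rose by 0.29 ± 0.067 (SE; limma adjusted p = 0.0313), from 1 probe set, and the call was lost in 6 of 12 alternatives. The others did not pass. TRIM5, whose protein binds retroviral capsids, had a difference of -0.22 (limma adjusted p = 0.0659) with both mimic arrays (7.30 and 7.24) below both controls (7.53 and 7.44). TRIM25, which ubiquitinates the RNA sensor RIG-I, gave -0.05 with overlapping groups in its brightest probe set. Its other probe set gave -0.34 with both mimic arrays below both controls (limma over probe sets, adjusted p = 0.0542). TRIM56 gave -0.03 and TRIM69 gave -0.05. TRIM14, an adaptor in RNA sensing, gave 0.15 with the mimic arrays above the controls. Its probe sets ran from -0.15 to 0.35, the last at adjusted p = 0.0504 in limma over probe sets. TRIM34 was below the level filter.

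Genes of RNA sensing and the interferon response showed the control gap more strongly. Of 28 listed, 23 were tested, and 3 fell, 1 rose and 19 did not pass, where 12.3% of all genes fell and 17.7% rose. Their median difference was -0.66, against -0.02 over all genes. The median level of the list was 5.44 in mimic 1 and 5.35 in mimic 2, against 6.78 in control 1 and 5.58 in control 2, and 19 of the 23 genes were higher in control 1 than in control 2. IRF9, a subunit of the interferon-activated factor ISGF3, fell by 1.44 ± 0.28 (SE), GBP1, an interferon-induced GTPase, by 0.995 ± 0.144, and TBK1, a kinase of the sensing pathway, by 0.31 ± 0.073. MAVS, the mitochondrial adaptor of RNA sensing, rose by 0.23 ± 0.056 (SE; limma adjusted p = 0.04). No gene of this list was higher with the replicate block, no level filter, quantile normalization or the mean of all probe sets. None was higher without probe sets that can share probes between genes either. MX1, an interferon-induced antiviral GTPase, had 5.40 and 4.98 in mimic and 7.31 and 5.41 in control, so that control 2 was next to mimic 1. Without control 1 the median of the list was -0.26, and without control 2 it was -0.97. Among the TRIM genes of this role 7 of 11 were higher in control 1 than in control 2, and outside TRIM22 the widest gap between the controls was 0.20 (TRIM14). TRIM22 thus shares the gap between control 1 and control 2 with this list, and without control 1 its difference was the -1.73 given above.

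**Figure D3:**
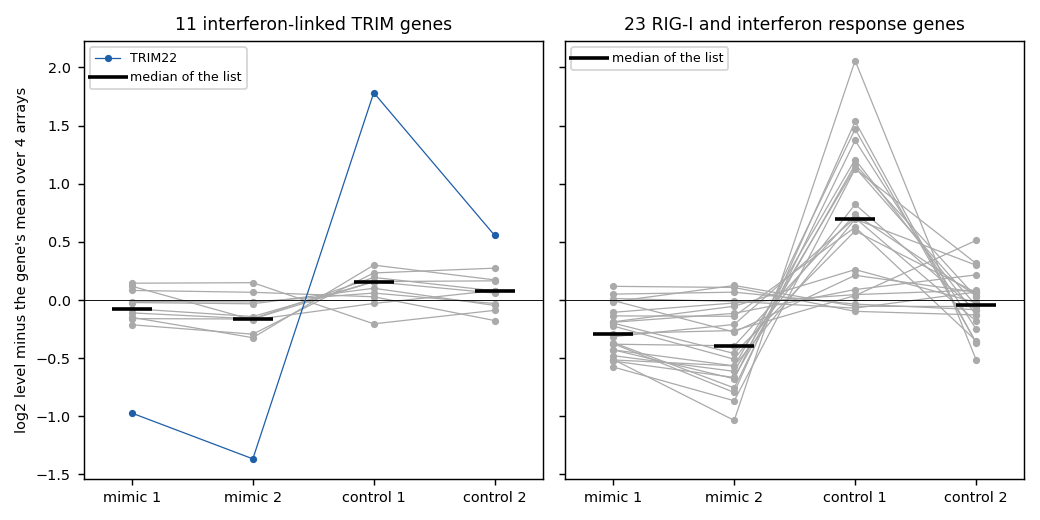
Log2 level of each gene minus its own mean over the 4 arrays, for 11 interferon-linked TRIM genes (left) and 23 RNA sensing and interferon response genes (right), by array, with lines joining the arrays of a gene, TRIM22 in blue and the list median as a black bar. TRIM22 is highest in control 1, as are most genes of the right panel, and the other TRIM genes stay closer to 0.

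Since interferon acts through promoter elements, the RefSeq promoter windows (250 bases before to 50 after the annotated start, GRCh38.p14) were searched on both strands for GAAANNGAAA, the core of the interferon-stimulated response element. Windows were listed for 46 of the 60 TRIM genes, and 8 of these genes (17.4%) held a match, against 4.38% of the 27305 genes with a window and 3.57% of all 35116 windows. The 8 were TRIM2, TRIM5, TRIM14, TRIM21, TRIM26, TRIM34, TRIM44 and TRIM69. Of the 7 TRIM genes that fell, 6 had a window and 2 held the motif. The 1 without a window was TRIM22, so the motif was not searched for the largest fall. Of the 8 that rose, 6 had a window and 1 held it, and of those that did not pass, 4 of 25 held it. TTCNNNGAA, the element bound by STAT dimers, was found in 7 of 46 TRIM genes (15.2%), against 9.38% of all genes, and in none of the 6 that fell. These counts are too small to compare by direction and carry no test.

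The windows are printed for TRIM21 and TRIM26, which fell and hold the motif, for TRIM5, which holds it and did not pass, and for TRIM38, which fell and has no match, all from GRCh38.p14 with matches in capitals. In TRIM21 a pair of overlapping matches lies from 18 to 33 bases after the start, counted from 1 at the start. In TRIM26 a pair of overlapping matches in the opposite orientation lies at -194 to -179, and in TRIM5 a single match in that orientation lies at -27 to -18.
TRIM21 promoter, chr11:4393653-4393952, minus strand: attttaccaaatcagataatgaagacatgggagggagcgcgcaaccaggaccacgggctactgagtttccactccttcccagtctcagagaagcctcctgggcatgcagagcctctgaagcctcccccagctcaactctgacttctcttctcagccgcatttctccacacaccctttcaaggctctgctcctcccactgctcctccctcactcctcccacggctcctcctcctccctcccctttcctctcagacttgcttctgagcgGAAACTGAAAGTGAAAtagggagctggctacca
TRIM26 promoter, chr6:30213357-30213656, minus strand: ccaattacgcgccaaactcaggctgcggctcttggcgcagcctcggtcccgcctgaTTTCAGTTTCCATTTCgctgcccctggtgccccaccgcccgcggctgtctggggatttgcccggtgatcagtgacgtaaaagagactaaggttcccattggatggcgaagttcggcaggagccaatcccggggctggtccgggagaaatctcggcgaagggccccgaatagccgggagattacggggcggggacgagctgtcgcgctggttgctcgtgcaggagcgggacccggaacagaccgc
TRIM5 promoter, chr11:5685025-5685324, minus strand: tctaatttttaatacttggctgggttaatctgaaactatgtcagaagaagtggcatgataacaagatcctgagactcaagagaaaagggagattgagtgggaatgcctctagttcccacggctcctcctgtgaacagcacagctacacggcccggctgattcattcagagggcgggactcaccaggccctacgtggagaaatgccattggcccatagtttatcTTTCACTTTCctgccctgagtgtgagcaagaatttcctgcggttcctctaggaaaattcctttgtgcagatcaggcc
TRIM38 promoter, chr6:25962552-25962851, plus strand: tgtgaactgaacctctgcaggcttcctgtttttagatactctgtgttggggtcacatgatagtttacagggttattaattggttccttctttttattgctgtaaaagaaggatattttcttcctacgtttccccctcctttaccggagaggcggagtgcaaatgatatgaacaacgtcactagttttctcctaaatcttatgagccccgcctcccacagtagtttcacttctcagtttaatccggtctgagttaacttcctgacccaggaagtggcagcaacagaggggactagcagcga
TRIM21 and TRIM26 each hold a pair of overlapping matches, and TRIM5 a single one. Among the other tested genes with the motif, TRIM2 rose, TRIM14 had mimic arrays above both controls, and TRIM44 and TRIM69 overlapped between groups.

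Many TRIM genes share a chromosome. Of the 60 genes, 15 lie on chromosome 11 and 7 on chromosome 6. Ordered by the lowest coordinate of each gene in GRCh38.p14, chromosome 11 starts with TRIM21, TRIM68, TRIM5, TRIM6, TRIM34, TRIM22, TRIM3 and TRIM66. The promoter window of TRIM5 lies beyond those of TRIM6 and TRIM34, so an order by start would differ. These 2 chromosomes were chosen after the values were seen, and the counts carry no test. Of the 9 chromosome 11 genes tested, 7 had a difference below 0, from -2.34 to -0.04, and 2 had one above 0 (TRIM44 at 0.01 and TRIM29 at 0.09), where 53.2% of all genes were below 0. Of these 9, 3 fell (TRIM21, TRIM6 and TRIM22) and 6 did not pass, where 12.3% of all genes fell. Of the 6 chromosome 6 genes tested, 5 had a difference below 0 and 3 fell (TRIM38, TRIM26 and TRIM31), and TRIM15 was at 0.02. All the genes that fell on these 2 chromosomes except TRIM31 are also counted in the interferon-linked list above, so the counts are not separate results. TRIM47 and TRIM65, adjacent on chromosome 17, both rose.

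**Figure D4:**
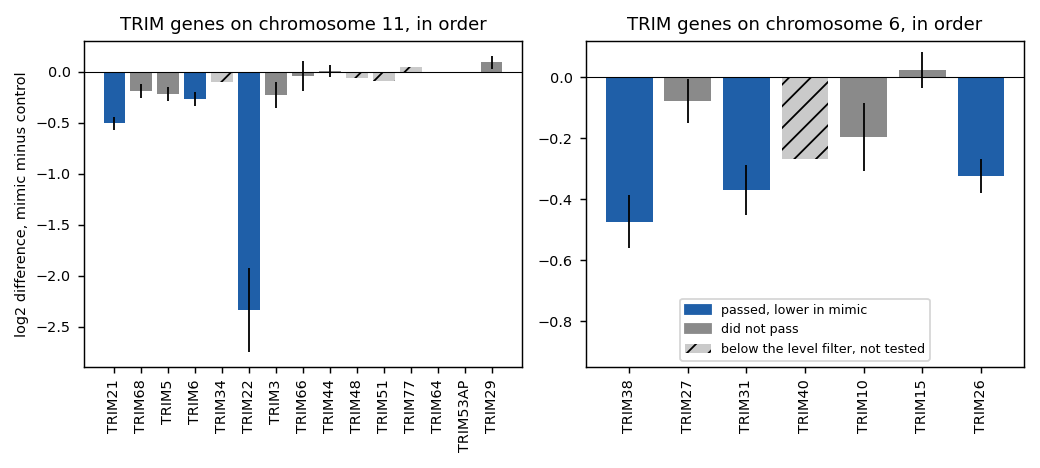
Log2 difference, mimic minus control, of every TRIM gene on chromosome 11 (left) and chromosome 6 (right), ordered by lowest coordinate. Lines are moderated standard errors, blue marks genes that passed and hatching marks genes below the level filter. The vertical scales differ between panels. TRIM22 is lowest at -2.34, and TRIM44, TRIM29 and TRIM15 are the tested genes above 0.

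Among the remaining genes that fell, TRIM31, a ligase known from intestinal epithelium, had 2.95 and 2.85 in mimic and 3.19 and 3.35 in control, all near the level filter. It fell by 0.37 ± 0.081 (SE; limma adjusted p = 0.0291), a call lost in 5 of 12 alternatives. TRIM58, known from red cell maturation, had 4.03 and 4.18 in mimic and 4.48 and 4.39 in control. It fell by 0.33 ± 0.077 (SE; limma adjusted p = 0.0329), and its other probe set, below the filter, gave 0.03. Both are small differences between dim values.

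TRIM7, which binds glycogenin, the protein primer of glycogen synthesis, had the largest rise of the family. It had 8.80 and 8.65 in mimic, against 7.63 and 7.65 in control, or intensities of 446 and 401 against 198 and 201. It rose by 1.09 ± 0.074 (SE), 2.12-fold (limma adjusted p = 0.00176), ranking 235 from the highest of 14340 genes. A second probe set gave 1.17, with 5.33 and 5.40 in mimic and 4.26 and 4.13 in control. The remaining one, with 3.79 and 3.64 in mimic and 3.71 and 3.93 in control, gave -0.11, so 2 of the 3 probe sets show the rise and the dimmest does not, and their mean gave 0.72. Without control 1 the difference was 1.08 (limma adjusted p = 0.0514) and without control 2 it was 1.10 (limma adjusted p = 0.0471).

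TRIM2, a ligase with NHL repeats known from neurons, had 3.31 and 3.30 in mimic and 2.36 and 2.56 in control. It rose by 0.84 ± 0.086 (SE; limma adjusted p = 0.00424). All 3 of its probe sets passed as higher, from 0.43 to 0.84, but only 1 of them lies above the level filter. In that probe set both controls lie below the level filter of 2.83, so it cleared the filter only through its mimic arrays. Measured from that level the difference was 0.48, while with a pseudocount of 8 it was 0.40. The other NHL genes did not pass: TRIM32, which is mutated in a muscular dystrophy, gave -0.16, TRIM3 gave -0.23 and TRIM71, known from stem cells, gave -0.26. The mimic arrays of TRIM32 and TRIM71 lay below both controls, and those of TRIM3 overlapped with them.

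TRIM37, a centrosomal and peroxisomal ligase with a MATH domain, had 6.62 and 6.61 in mimic and 6.01 and 6.17 in control. It rose by 0.52 ± 0.075 (SE), 1.44-fold (limma adjusted p = 0.00974). Its other 3 probe sets, all dimmer, gave 0.11 to 0.20, and the mean over those above the filter was 0.26 (limma adjusted p = 0.0357). TRIM59, a membrane-anchored ligase, had 6.70 and 6.92 in mimic and 6.41 and 6.49 in control. It rose by 0.36 ± 0.092 (SE; limma adjusted p = 0.0413), a call lost in 6 of 13 alternatives. Its other probe set, below the level filter, gave 0.39. TRIM13, a ligase of the endoplasmic reticulum, gave -0.05 with overlapping groups, and TRIM23, which carries an ARF domain, is not read here by a single-gene probe set.

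Of the nuclear regulators with a PHD finger and bromodomain, 1 of 4 rose, where 17.7% of all genes rose. TRIM24, a co-regulator of nuclear receptors, had 6.66 and 6.70 in mimic and 6.26 and 6.17 in control. It rose by 0.47 ± 0.064 (SE), 1.38-fold (limma adjusted p = 0.00874), with 0.52 and 0.12 in its other probe sets. TRIM28, the co-repressor that KRAB zinc finger proteins recruit to silence repeats, had 8.82 and 8.80 in mimic and 8.67 and 8.72 in control, a difference of 0.12 that did not pass (limma adjusted p = 0.183). TRIM33, a regulator of SMAD signalling, gave -0.19 with both mimic arrays (7.51 and 7.46) below both controls (7.71 and 7.65; limma adjusted p = 0.0712), and TRIM66 gave -0.04. TRIM24 and TRIM33 therefore stood on opposite sides of 0, and the difference between them was not tested.

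Of 11 listed partners of TRIM28 in silencing, 3 rose, 1 fell and 7 did not pass, where 17.7% of all genes rose and 12.3% fell. Their median difference was 0.19. With all 4 arrays, 2 partners were higher with the replicate block, after quantile normalization or without probe sets that can share probes between genes. Over all genes, 1939 of 14340, 2057 of 14340 and 1989 of 12723 were higher in these settings. The count of partners was 6 with a pseudocount of 8, with the lowest 50% left out or with a variance trend. There, 2882 of 14340, 2781 of 11300 and 3139 of 14340 genes were higher over all genes. No partner was lower with the replicate block, no level filter, arrays centred on their median or the mean of all probe sets. The same held without probe sets that can share probes, where the median was 0.02. On leaving out 1 array the median ran from 0.17 to 0.21. CBX1, a heterochromatin protein, rose by 0.72 ± 0.073 (SE), RBBP4, a histone chaperone, by 0.44 ± 0.074, and CBX5, another heterochromatin protein, by 0.27 ± 0.059. HDAC2, a histone deacetylase, fell by 0.29 ± 0.079 (SE; limma adjusted p = 0.0492).

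TRIM47 had 6.60 and 6.60 in mimic and 6.15 and 6.19 in control. It rose by 0.43 ± 0.057 (SE), 1.35-fold (limma adjusted p = 0.00793), from 1 probe set. TRIM35 had 7.25 and 7.30 in mimic and 6.91 and 6.75 in control. It rose by 0.45 ± 0.077 (SE; limma adjusted p = 0.0158), but its other 3 probe sets gave 0.27, 0.05 and -0.22, and with the mean of its probe sets the call was lost (0.14, limma adjusted p = 0.139). The groups did not overlap for TRIM47 or TRIM35 in the probe sets used.

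Neither TRIM29 nor TRIM8 nor TRIM44 passed. TRIM29, a RING-less member of basal epithelia, had 9.39 and 9.36 in mimic and 9.34 and 9.23 in control. Its difference was 0.09 (limma adjusted p = 0.344), and its other 5 probe sets gave 0.05 to 0.23, all above 0. TRIM8, which targets the cytokine signalling inhibitor SOCS1, gave 0.12 (limma adjusted p = 0.189), and TRIM44, another member without a RING finger, gave 0.01. Of 4 tested members without a RING finger (TRIM14, TRIM29, TRIM44 and TRIM66), 0 passed in limma, and 0 had an unadjusted p under 0.05.

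The COS-box members listed under TRIM symbols, which bind microtubules or muscle sarcomeres, had 6 of 8 tested. Of these 0 passed in limma, with 2 at an unadjusted p under 0.05 (TRIM9 and TRIM36). MID1 and MID2, under other symbols, are not counted here, and MID2 rose, as given below. Both were called with a pseudocount of 8, 1 higher and 1 lower. TRIM9, known from neurons, had 4.66 and 4.56 in mimic and 3.84 and 4.30 in control, the largest difference above 0 that did not pass (0.54, limma adjusted p = 0.06). Its other probe sets gave -0.37, with overlapping groups, and -0.42. The one at -0.42 passed as lower in the test over probe sets but lies below the level filter. It had 2.02 and 2.08 in mimic and 2.44 and 2.50 in control. The probe sets of TRIM9 thus differ in sign, but those below 0 are dim. TRIM63, the muscle ligase MuRF1, gave -0.32 with 1 control (5.23) far above the other (4.75; limma adjusted p = 0.191). TRIM17, a PRY-SPRY member, gave -0.27 (limma adjusted p = 0.0724).

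Taken probe set by probe set, with no level filter, 11 of 160 TRIM probe sets were higher and 9 lower (limma adjusted p under 0.05 over 44988 probe sets), or 12.5% in all, against 8.18% of all probe sets higher, 3.59% lower and 11.8% in either direction. The called probe sets belonged to 13 genes, among them TRIM9 and TRIM15, which were not called as genes. TRIM6, TRIM31, TRIM58 and TRIM65, called as genes, had no probe set that passed here. For TRIM59 only the probe set below the level filter passed. Among the 15 genes called above, 12 had several probe sets, of which 9 had all their probe sets on 1 side of 0 and 3 (TRIM7, TRIM35 and TRIM58) had 1 on the other side. TRIM15, on chromosome 6, gave 0.02 in its brightest probe set and -0.58 in another that passed as lower, with 3.72 and 4.02 in mimic and 4.45 and 4.45 in control. Probe sets of a gene read the same transcripts and are not replicates of each other. TRIM5, TRIM6, TRIM22 and TRIM34 are close paralogs, and probes shared between them cannot be told from the deposited values, so values of this group are uncertain to that extent.

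**Figure D5:**
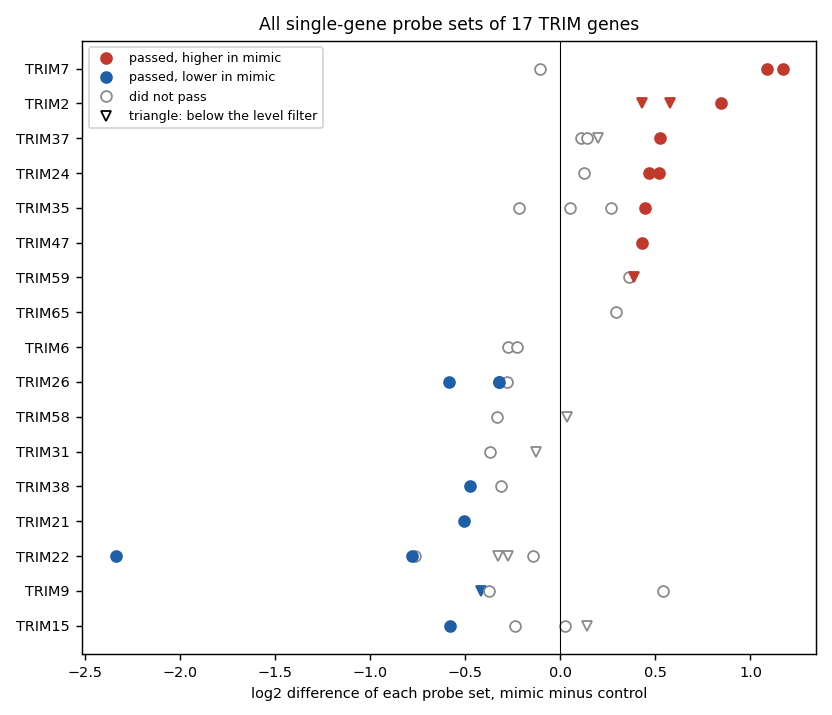
Log2 difference, mimic minus control, of every single-gene probe set of the 15 called TRIM genes, TRIM9 and TRIM15. Filled symbols passed the test over probe sets (red higher, blue lower), open symbols did not, and triangles mark probe sets below the level filter. TRIM22 spans -2.34 to -0.14, and TRIM9 spans -0.42 to 0.54.

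Between replicate arrays the median gap over the 49 genes was 0.06 between the mimic arrays and 0.10 between the control arrays, against 0.07 and 0.09 over all genes. Gaps over 0.3 between the mimic arrays were found for 3 genes (TRIM22, TRIM66 and TRIM3) and between the control arrays for 5 (TRIM22, TRIM63, TRIM9, TRIM50 and TRIM10). Of these, TRIM22 was the 1 that passed.

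Some TRIM proteins are encoded by genes under other symbols. Of 7 such genes listed, 6 were tested, and MID2, a microtubule-binding ligase, rose by 0.24 ± 0.058 (SE; limma adjusted p = 0.037), with 6.86 and 6.85 in mimic and 6.59 and 6.64 in control, while 5 did not pass. No gene of this list was higher with the replicate block, with no level filter, after quantile normalization or on leaving out any 1 array, so the MID2 call was lost in 7 of 13 alternatives. PML, the organiser of nuclear bodies, gave -0.15, MID1, a paralog of MID2, gave -0.03 and MEFV, the pyrin gene, gave -0.13.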

How the data were processed

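Total RNA (2 µg) was labelled with biotin as cRNA and hybridised to 1-colour Affymetrix arrays, per the labels' protocols. The authors deposited 1 intensity per probe set and array on a linear scale, made with RMA per the submitters' processing notes; neither its version nor its parameters are given in those notes. Deposited values ran from 1.62 to 11401, with array medians of 17.2 to 17.5. Log2 was taken with no pseudocount. The number of arrays limits the precision, and RMA compresses differences of dim probe sets.

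Of 49293 probe sets, 44988 had 1 symbol, 1832 several and 2473 none, and 44961 of the first were matched by gene identifier to RefSeq (GRCh38.p14). All 60 TRIM genes were matched. The test was limma 3.58.1 in R 4.3.3 (lmFit, eBayes), mimic against control, without a replicate block, on 4.98 total degrees of freedom, with Benjamini-Hochberg adjustment over all genes; the fit was tested on simulated data. With 2 arrays per group, the smallest two-sided p of an exact permutation test is 0.333.

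Members and lists were chosen with earlier results of these data known. Named were all called TRIM genes, the 5 largest differences each way, the interferon-linked, PHD-bromodomain and membrane, ARF or MATH groups, TRIM8, TRIM29 and TRIM32, genes beside the level filter or with probe sets called in a way that disagrees, and up to 3 called genes of each other list; the rest were named after their values were seen. Alternatives were the replicate block, a pseudocount of 8, other level filters, scalings and probe set choices, a variance trend and leaving out each array. Same-numbered arrays did not deviate together (r = -0.00105 across genes), so the numbers were not treated as pairs.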

Additional observations from a re-analysis of the deposited data

How the results depend on the processing

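Over the 13 alternatives, no called TRIM gene changed sign in any alternative that held it. The 8 higher genes became 6 to 11, and the 7 lower ones 6 to 10, except with the replicate block (4 lower), quantile normalization (14 lower) and left-out arrays. Leaving out 1 array left 1 array in a group, and these fits have fewer residual degrees of freedom. Most gene calls were then lost, over TRIM genes and over the whole array, as were all calls of TRIM probe sets. The median TRIM difference ran from -0.09 to -0.05. Calls were otherwise lost for TRIM6, TRIM31, TRIM58 and TRIM65 with the replicate block, TRIM6 and TRIM59 with no filter, TRIM59 and TRIM65 after quantile normalization, TRIM6 and TRIM35 with the mean of all probe sets, and TRIM22 with a variance trend, while TRIM2, TRIM21 and TRIM65 had no probe set above the level filter without those that can share probes between genes, nor TRIM2 and TRIM31 with the lowest 50% left out; the cause was not tested. The median TRIM difference became -0.14 after quantile normalization. Calls were gained for TRIM5, TRIM9, TRIM33, TRIM36 and TRIM41 with a pseudocount of 8. The same genes and TRIM17 were gained with the lowest 50% left out. Quantile normalization added TRIM5, TRIM11, TRIM32, TRIM33, TRIM36, TRIM46 and TRIM68, and a variance trend TRIM4, TRIM5, TRIM9, TRIM33 and TRIM41. Arrays centred on their median added TRIM9, and leaving out probe sets that can share probes added TRIM25. The mean of all probe sets added TRIM15, at -0.27, and TRIM72. Of TRIM probe sets, 2 were higher and 0 lower with the replicate block (limma; 18 and 24 at an unadjusted p under 0.05) and 17 higher with a variance trend. Dim probe sets, such as those of TRIM2 and TRIM31, limit what can be read.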

Other observations

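Another 15 probe sets were assigned to several genes, at least 1 of them a TRIM gene, and were left out above because they cannot be credited to 1 gene. In limma over all 49293 probe sets 0 of the 15 passed, and 0 had an unadjusted p under 0.05, with differences, mimic minus control, from -0.34 (TRIM73 and TRIM74) to 0.29 (a probe set shared by TRIM39 and RPP21). The probe set shared by TRIM16, a member without a RING finger, and its copy TRIM16L had 9.24 and 9.27 in mimic and 9.23 and 9.31 in control, and the groups overlapped. The brighter probe set of TRIM34 and its read-through transcript with TRIM6 had 6.25 and 6.20 in mimic and 6.31 and 6.27 in control, a difference of -0.07, so a level above the filter exists for TRIM34 only together with that transcript. The 3 probe sets of TRIM39 and its read-through transcript with RPP21 gave -0.17, -0.26 and -0.14, and the probe set that also reads RPP21 was the 1 above 0.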
